A study of Rattus norvegicus with 12 samples.

Results

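The ligands of the epidermal growth factor (EGF) family and the ErbB receptors were examined in cultured rat heart muscle cells. The 9 genes, chosen by symbol, were the ligands Hbegf, Areg, Ereg, Tgfa and Nrg1 and the receptors Egfr, Erbb2, Erbb3 and Erbb4, out of 17312 gene symbols listed in every library. The cells were ventricular cardiomyocytes of neonatal Wistar rats, and polyadenylated RNA was sequenced from 12 libraries in 4 groups of 3. The groups were unstretched cells with a control siRNA, unstretched cells with an siRNA against Wnt5a, stretched cells with the control siRNA and stretched cells with the Wnt5a siRNA. All 4 groups received an siRNA, and the length of the stretch is not stated in the labels. The labels name no separate cultures for the libraries of a group, and the p-values therefore reflect only how much these libraries vary, which can be technical.

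EGF family ligands are made as proteins anchored in the cell membrane and are released by proteases called sheddases. A released ligand brings ErbB receptors together in pairs, and the paired receptors switch on the ERK and PI3 kinase cascades. Hbegf, Areg, Ereg and Tgfa are ligands of Egfr, Hbegf and Ereg also bind Erbb4, and Nrg1 binds Erbb3 and Erbb4. Erbb2 has no known ligand and works as the partner of the other receptors, and Erbb3 has little kinase activity of its own. In the heart, neuregulin from endothelial cells acts on Erbb4 and Erbb2 of cardiomyocytes, and Hbegf is known as a growth signal for heart muscle cells.

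Promoter sequence is shown for the 3 members that changed most with stretch, 2 ligands and 1 receptor. RefSeq windows on the rat assembly GRCr8 were found for 6 of the 9 members. Each sequence is the 250 bases before the annotated start, 5′ to 3′ in the direction of the gene, and capitals mark a match to one of 6 motifs. The windows are chr18:28390221-28390470 for Hbegf, chr14:17265642-17265891 for Areg and chr9:78045607-78045856 for Erbb4, all on the minus strand.
Hbegf: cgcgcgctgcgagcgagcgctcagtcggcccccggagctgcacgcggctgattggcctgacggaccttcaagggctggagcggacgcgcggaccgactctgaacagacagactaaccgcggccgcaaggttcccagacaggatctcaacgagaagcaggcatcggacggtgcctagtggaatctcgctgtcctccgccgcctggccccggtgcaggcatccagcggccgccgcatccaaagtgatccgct
Areg: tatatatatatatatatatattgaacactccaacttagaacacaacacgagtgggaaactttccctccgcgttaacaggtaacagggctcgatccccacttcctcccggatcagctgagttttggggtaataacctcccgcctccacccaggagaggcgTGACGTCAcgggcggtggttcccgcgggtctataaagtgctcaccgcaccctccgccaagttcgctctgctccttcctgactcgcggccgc
Erbb4: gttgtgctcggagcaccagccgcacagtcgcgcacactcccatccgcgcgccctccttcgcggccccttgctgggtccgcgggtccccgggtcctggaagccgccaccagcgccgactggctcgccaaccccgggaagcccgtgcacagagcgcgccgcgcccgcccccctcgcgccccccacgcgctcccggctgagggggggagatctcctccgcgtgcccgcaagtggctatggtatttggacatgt

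The motifs were searched on both strands in the 250 bases before and 50 bases after each annotated start. They were AP-1 (TGANTCA), TEAD (GGAATG), ETS (CCGGAAGT), CRE (TGACGTCA), NFAT (TGGAAA) and the CArG box of SRF, and none of these letter patterns contains another. Among 27457 rat promoter windows of the same length, 7.33% held the AP-1 letters, 13.9% TEAD, 4.01% ETS, 1.91% CRE, 22.4% NFAT and 1.64% the CArG box. Areg held the CRE letters, the binding pattern of cAMP-responsive factors, at positions −91 to −84 from the start. These letters read the same on both strands. Erbb2 held the TEAD letters on its own strand at positions −153 to −148. Hbegf, Tgfa, Egfr and Erbb4 held none of these letters in their windows. The windows were rich in G and C, at 68.7% for Hbegf, 56.0% for Areg and 70.3% for Erbb4, against a median of 52.3% over all windows. In the order of genes on chromosome 14 of GRCr8, Areg lies between Btc and Ereg, and Ereg lies between Areg and Epgn.

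Wnt5a, the target of the siRNA, was measured at 12.3, 10.4 and 11.6 FPKM (fragments scaled to transcript length and library size) in the 3 unstretched control libraries. It was measured at 6.15, 4.60 and 6.81 with Wnt5a siRNA, a log2 change of −0.87 ± 0.14 (SE; limma, adjusted p = 0.0014). In stretched cells it was at 6.52, 5.66 and 8.22 with control siRNA and at 6.22, 5.88 and 5.56 with Wnt5a siRNA, a change of −0.17 ± 0.14 (adjusted p = 0.3871). Wnt5a was thus lower with its siRNA in unstretched cells, while in stretched cells the difference did not pass, and it fell with stretch itself under control siRNA (−0.68 ± 0.14, adjusted p = 0.0014). The third stretched control library stood apart, with an SD of log2 differences of 0.393 and 0.426 to its replicates, against 0.205 to 0.288 for all other pairs within groups. That library had the lowest summed cardiomyocyte marker level of its group (11212 FPKM) and the highest summed fibroblast (9948 FPKM) and macrophage (497 FPKM) marker levels. Across groups, the fibroblast sum was 4264 to 4776 in unstretched control, 6185 to 6412 in unstretched Wnt5a siRNA, 5966 to 9948 in stretched control and 10150 to 10720 in stretched Wnt5a siRNA libraries. With stretch under control siRNA, 8 of 11 tested fibroblast markers rose and 0 fell, 7 of 11 macrophage markers rose and 0 fell, and 2 of 10 cardiomyocyte markers rose and 5 fell. Of all tested genes, 27.5% rose and 26.8% fell there. In stretched cells with Wnt5a siRNA against control siRNA, 6 of 11 fibroblast markers rose and 0 fell, 3 of 11 endothelial markers rose and 1 fell, and 2 of 10 smooth muscle markers rose and 5 fell. The shares over all tested genes were 13.2% and 14.2%. The summed smooth muscle level was 4223 to 7124 FPKM in stretched control and 3289 to 3793 in stretched Wnt5a siRNA libraries. Most of it came from Acta2 and Tagln, with means of 3108 and 1995 FPKM in stretched control and 1763 and 1275 in stretched Wnt5a siRNA libraries. Means of Rgs5, Pdgfrb, Kcnj8 and Abcc9 were higher with Wnt5a siRNA there, and those of the other smooth muscle markers were lower. Without stretch, Wnt5a siRNA gave 0 higher and 8 lower of 11 macrophage markers, with sums of 164 to 213 and 138 to 147 FPKM, and 1 higher and 4 lower of 10 cardiomyocyte markers. Beside this, 14.6% of all tested genes were higher and 13.9% lower. With stretch under Wnt5a siRNA 11 of 11 macrophage markers rose, to sums of 333 to 383 FPKM, 6 of 11 endothelial markers rose and 0 fell, and 5 of 10 smooth muscle markers fell and 2 rose. In the same comparison 8 of 11 fibroblast markers rose and 1 fell, and 0 of 10 cardiomyocyte markers rose and 4 fell. Here 8.44% of all tested genes rose and 7.59% fell. The smooth muscle marker Cnn1, a calponin singled out after its values were seen, had group means of 98.6, 207, 307 and 127 FPKM in unstretched control, unstretched Wnt5a siRNA, stretched control and stretched Wnt5a siRNA libraries, with an interaction of −2.31 ± 0.33 (adjusted p = 0.0016). As for Hbegf, the lowest mean was in unstretched control and the highest in stretched control libraries. The list was mixed, since 2 of 10 smooth muscle markers rose and 3 fell with stretch under control siRNA. Myh11 went from a mean of 45.4 to 12.1 FPKM there. The interaction was negative for 3 of the 10 markers and positive for 0. The part of other cell types in the changes below was not tested, and in these bulk libraries fewer cells of a type and less RNA per cell cannot be told apart.

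Members were tested on log2(FPKM + 1) with limma, and a gene was called when its p-value adjusted over all 10518 tested genes was under 0.05. Of the 9 members, 8 passed the filter of at least 1 FPKM in at least 3 libraries, and Erbb3 did not. With stretch under control siRNA, 3 members rose (Hbegf, Areg and Ereg) and 1 fell (Erbb4). In that comparison 54.3% of all tested genes were called, 27.5% higher and 26.8% lower, so the share of members called lies near the background and the sizes of the changes carry the description. Scaling every library to the same sum of FPKM shifted the median change over the tested genes to −0.20 (log2) and gave 3 members higher and 3 lower, as Erbb2 and Egfr were then called lower. Without the third stretched control library 4 members were higher and 1 lower. All 3 stretched control libraries lay above all 3 unstretched ones for Hbegf and Areg, as for 29.0% of all genes, and below for Erbb4 and Erbb2, as for 29.0%. With Wnt5a siRNA in stretched cells 0 members rose and 3 fell (Hbegf, Areg and Tgfa), beside 13.2% and 14.2% of all genes, or 27.3% in either direction. The same-sum scaling moved the median of all genes by 0.10 and gave 1 higher and 3 lower there, and leaving out the third stretched control library gave 2 higher and 3 lower. Without that library the calls over all genes grew as well, from 2875 to 4662. Groups did not overlap for Egfr, which lay above (18.6% of all genes did), or for Hbegf, Areg and Tgfa, which lay below (19.0%).

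**Figure D1:**
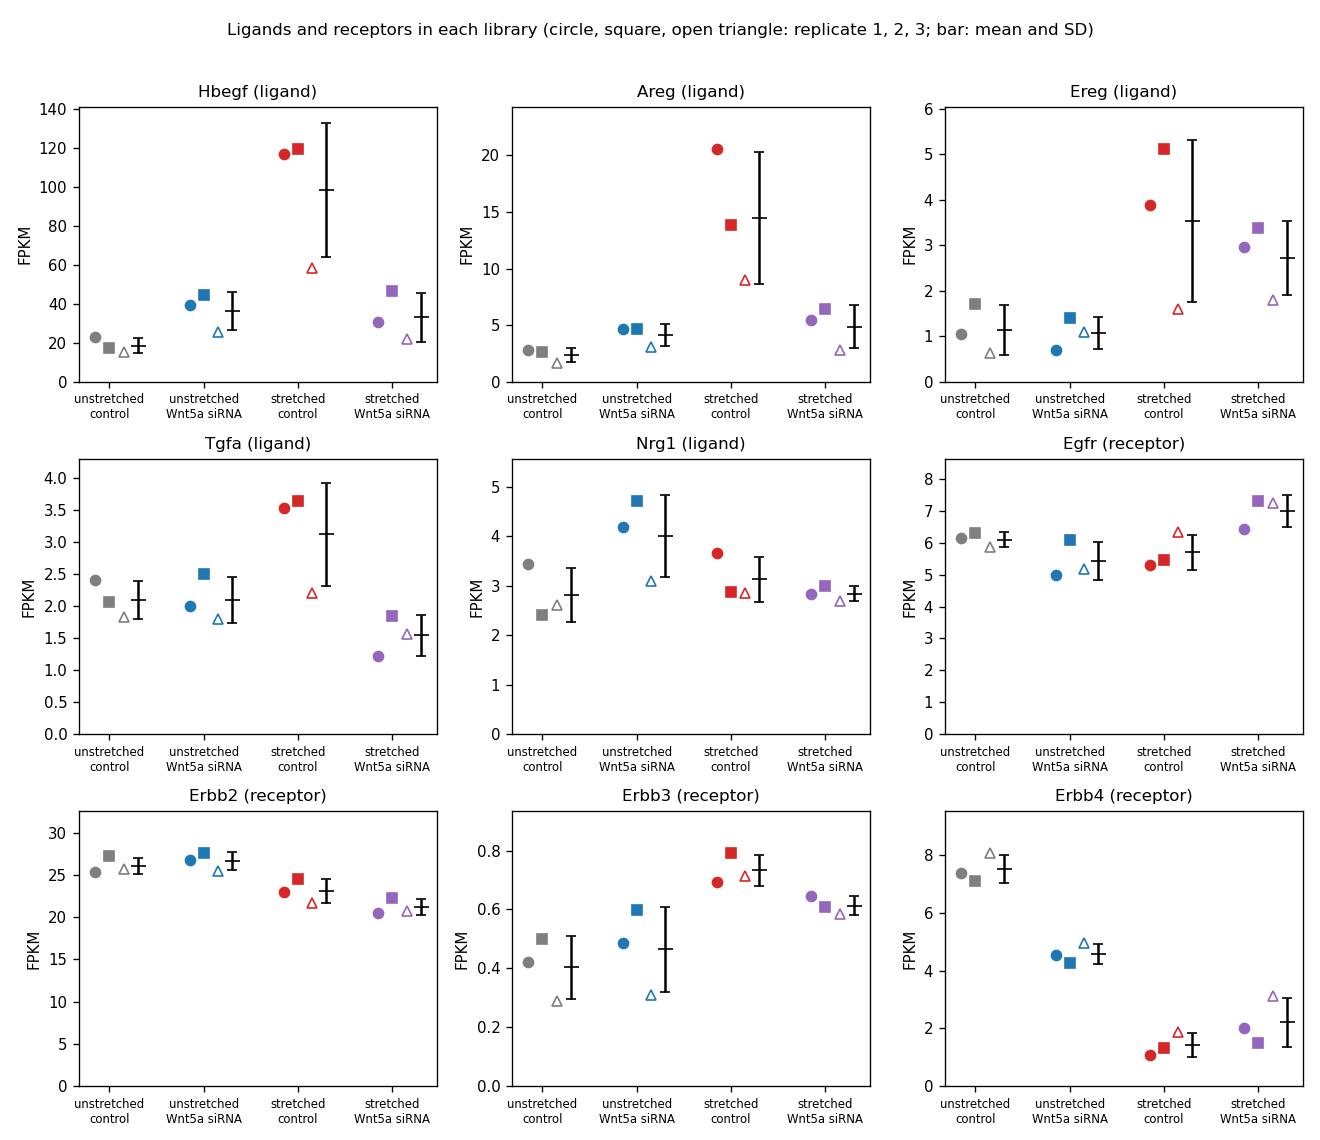
FPKM of the 9 members in each of the 12 libraries, with 1 panel per gene and the 4 groups side by side on the horizontal axis; circle, square and open triangle are replicates 1, 2 and 3, and the bars beside them give the mean and SD of the 3 libraries. Hbegf reached 58.4 to 119.5 FPKM in stretched control libraries against 15.3 to 22.8 in unstretched control libraries, and Erbb4 was at 1.09 to 1.89 against 7.10 to 8.07.

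Hbegf, the heparin-binding ligand, was the most abundant ligand in every library. Its level in unstretched control libraries was 22.8, 17.3 and 15.3 FPKM, a mean of 18.5 ± 3.91 (SD, n = 3). In stretched control libraries it was 117, 119.5 and 58.4 FPKM, a mean of 98.3 ± 34.5. The 2 groups did not overlap, and the third stretched control library was the lowest of its group. The mean was 5.32 times that of unstretched control, and the log2 change was 2.30 ± 0.31 (SE; adjusted p = 6.7e-05), the 10th highest of 10518 genes. With Wnt5a siRNA Hbegf was at 39.4, 44.5 and 25.5 FPKM without stretch and at 30.7, 46.7 and 21.7 with stretch. In stretched cells it therefore fell with Wnt5a siRNA, by 1.54 ± 0.31 on the log2 scale (adjusted p = 0.0059), to 33.6% of the stretched control mean, and no library of either group overlapped the other.

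In unstretched cells Hbegf moved the other way. All 3 libraries with Wnt5a siRNA lay above all 3 with control siRNA, and their mean was 197% of it. The log2 change was 0.93 ± 0.31 (adjusted p = 0.0414). This call was near the threshold: it was lost with no filter on low values (adjusted p = 0.0724) and without unstretched control 2 (0.1040) or 3 (0.1371), unstretched Wnt5a siRNA 1 (0.1200) or 2 (0.1433), or stretched Wnt5a siRNA 1 (0.0569). Under Wnt5a siRNA, stretched and unstretched libraries overlapped, with a log2 difference of −0.17 (95% interval −0.84 to 0.50; adjusted p = 0.7573). The interaction, the change with stretch under Wnt5a siRNA minus that under control siRNA, was −2.46 ± 0.44 (adjusted p = 0.0034), the 6th lowest value of all genes. Without the third stretched control library Hbegf had 2.63 for stretch under control siRNA, −1.87 for the siRNA in stretched cells and −2.80 for the interaction.

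Areg encodes amphiregulin, another ligand of Egfr, and was several times less abundant than Hbegf per transcript length. Its level was 2.82, 2.67 and 1.66 FPKM in unstretched control and 20.6, 13.8 and 8.99 in stretched control libraries. The lowest stretched control library was above the highest unstretched one, and the means were 2.38 ± 0.628 and 14.5 ± 5.83 (SD, n = 3), a ratio of 6.07. The log2 change was 2.14 ± 0.29 (adjusted p = 7.2e-05), the 16th highest of all genes. In stretched Wnt5a siRNA libraries Areg was at 5.48, 6.39 and 2.78 FPKM, all below stretched control. It fell there by 1.38 ± 0.29 on the log2 scale (adjusted p = 0.0070), to 33.7% of the stretched control mean.

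Without stretch, Areg was at 4.68, 4.71 and 3.04 FPKM with Wnt5a siRNA, above all 3 unstretched control libraries. The log2 difference of 0.60 ± 0.29 did not pass the test (adjusted p = 0.1420). With the replicate number as a block it passed, at adjusted p = 0.0130. Under Wnt5a siRNA, stretched and unstretched libraries overlapped, with a difference of 0.16 ± 0.29 (adjusted p = 0.7612). The interaction was −1.98 ± 0.41 (adjusted p = 0.0064), the 16th lowest of all genes. Hbegf and Areg both had their lowest group mean in unstretched control and their highest in stretched control libraries, with both Wnt5a siRNA groups between. These 2 middle groups stood in opposite order, at 36.5 ± 9.79 without and 33.1 ± 12.7 with stretch for Hbegf and at 4.14 ± 0.954 and 4.88 ± 1.88 FPKM for Areg (SD, n = 3), and did not differ beyond their spread.

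Ereg encodes epiregulin, which binds Egfr and Erbb4. It was at 1.05, 1.71 and 0.622 FPKM in unstretched control and 3.87, 5.12 and 1.60 in stretched control libraries. The groups overlapped, since the third stretched control library was below the second unstretched control library. The mean was 3.13 times as high with stretch, and the log2 change of 1.03 ± 0.29 passed the test (adjusted p = 0.0102). With Wnt5a siRNA Ereg was at 0.699, 1.41 and 1.09 FPKM without stretch and at 2.96, 3.37 and 1.80 with stretch. These 2 groups did not overlap, and the difference of 0.84 ± 0.29 missed the threshold (adjusted p = 0.0750). With the replicate number as a block it passed, at adjusted p = 0.0170, and it also passed without the third stretched control library, at 0.0158.

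Unlike Hbegf and Areg, Ereg was not called with Wnt5a siRNA. The difference was −0.23 in stretched cells (95% interval −0.87 to 0.41; adjusted p = 0.5923) and −0.03 in unstretched cells (adjusted p = 0.9565). Its interaction was −0.20 ± 0.42 (95% interval −1.10 to 0.71; adjusted p = 0.7617). Whether the interaction of Ereg differs from that of Hbegf or Areg was not tested.

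Tgfa encodes transforming growth factor alpha, a ligand of Egfr. It was at 2.41, 2.06 and 1.83 FPKM in unstretched control, 2.0, 2.5 and 1.8 in unstretched Wnt5a siRNA, 3.53, 3.65 and 2.2 in stretched control and 1.21, 1.85 and 1.56 in stretched Wnt5a siRNA libraries. In stretched cells the 3 Wnt5a siRNA libraries lay below the 3 control libraries. Tgfa fell there by 0.69 ± 0.16 on the log2 scale (adjusted p = 0.0114), to 49.4% of the control mean, and the call was lost without stretched control 1 (adjusted p = 0.0562). The difference with stretch under control siRNA was 0.40 ± 0.16 (adjusted p = 0.0566), which passed under quantile normalization (0.0222) and without the third stretched control library (0.57, adjusted p = 0.0059). Without stretch the 2 siRNAs overlapped in Tgfa, with a log2 difference between −0.36 and 0.35 (95% interval).

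The interaction of Tgfa was −0.68 ± 0.23 and lay at the threshold (adjusted p = 0.0498). It was lost in 12 of 18 alternatives, with adjusted p from 0.0507 to 0.1165 in those 12. They were the pseudocount of 0.1, no filter, the same-sum scaling and the fits without unstretched control 1, 2 or 3, unstretched Wnt5a siRNA 1 or 2, stretched control 1 or 2, or stretched Wnt5a siRNA 1 or 3.

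Nrg1, the neuregulin gene, was at 3.43, 2.4 and 2.6 FPKM in unstretched control and 3.66, 2.88 and 2.85 in stretched control libraries. These 2 groups overlapped, and the log2 difference was 0.12 (adjusted p = 0.5132). With Wnt5a siRNA it was at 4.19, 4.71 and 3.08 FPKM without stretch and at 2.83, 3.0 and 2.69 with stretch. The 2 Wnt5a siRNA groups did not overlap, yet the difference of −0.37 ± 0.15 missed the threshold (adjusted p = 0.1115), which it passed under the same-sum scaling (0.0345) and without unstretched Wnt5a siRNA 3 (0.0461). Wnt5a siRNA in unstretched cells gave 0.39 ± 0.15 (adjusted p = 0.0657), which passed without unstretched control 1 (0.0372) or unstretched Wnt5a siRNA 3 (0.0229). It also passed with the replicate number as a block (0.0495). The interaction was −0.49 ± 0.21 (adjusted p = 0.1051), and it passed without unstretched Wnt5a siRNA 3 (0.0379). Nrg1 was therefore called in none of the 5 comparisons of the main fit.

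The other ligand genes were low. Egf lay between 0.113 and 0.717 FPKM over the 12 libraries, Btc between 0 and 0.939, Nrg2 and Nrg4 under 1 in every library, and Epgn was listed at 0 in every library. None of these 5 passed the filter. Nrg3 was not analysed here.

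**Figure D2:**
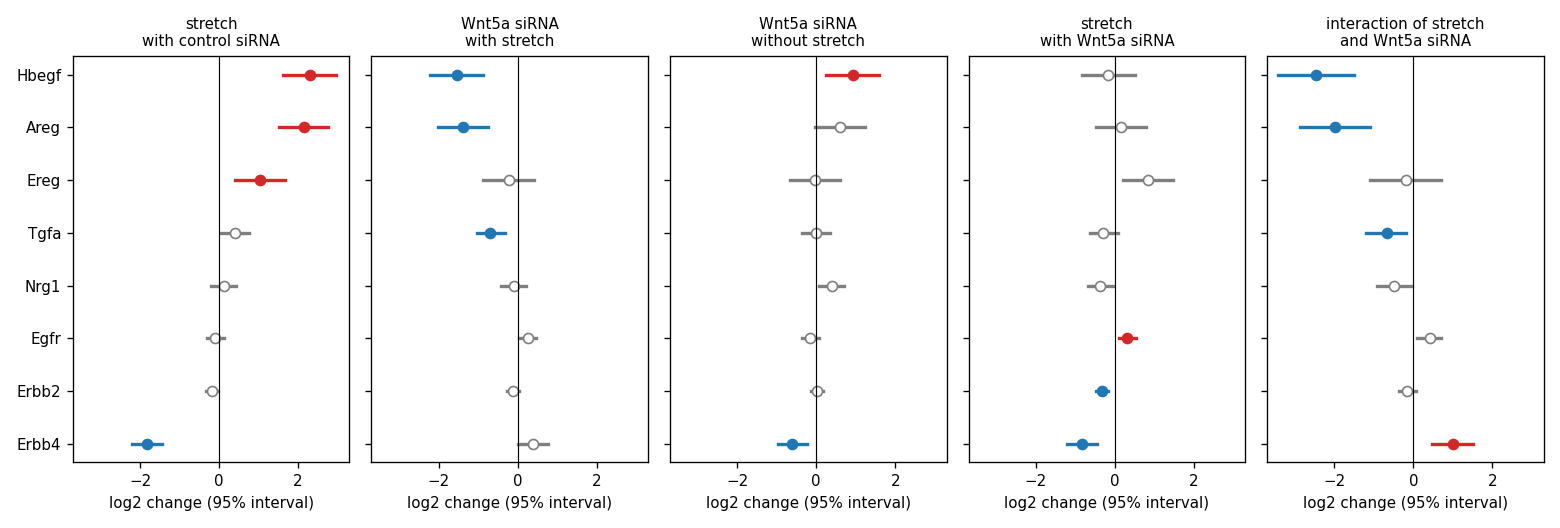
Log2 change of log2(FPKM + 1) with its 95% interval for each tested member in the 5 comparisons; filled points passed the adjusted p threshold of 0.05, in red for higher and blue for lower, and open points did not pass. Hbegf and Areg lie at 2.30 and 2.14 with stretch under control siRNA and at −1.54 and −1.38 with Wnt5a siRNA in stretched cells, and Erbb4 lies at −1.82 with stretch.

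Erbb4, the neuregulin receptor of heart muscle cells, fell with stretch. Its level was 7.37, 7.10 and 8.07 FPKM in unstretched control and 1.09, 1.31 and 1.89 in stretched control libraries. The groups were far apart, with means of 7.51 ± 0.50 and 1.43 ± 0.411 (SD, n = 3), so that the stretched mean was 19.0% of the unstretched one. The log2 change was −1.82 ± 0.17 (adjusted p = 6.1e-06), the 69th lowest of 10518 genes. With Wnt5a siRNA Erbb4 was at 4.54, 4.25 and 4.95 FPKM without stretch and at 2.01, 1.49 and 3.13 with stretch. It fell with stretch here too, by 0.83 ± 0.17 (adjusted p = 0.0071), to 48.3% of the unstretched mean, and the groups did not overlap.

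Without stretch, Erbb4 was lower with Wnt5a siRNA than with control siRNA in all 3 libraries. It fell by 0.61 ± 0.17 on the log2 scale (adjusted p = 0.0200), to 60.9%, and the call was lost without unstretched control 3 (adjusted p = 0.0737), unstretched Wnt5a siRNA 1 (0.0586) or unstretched Wnt5a siRNA 2 (0.0678). In stretched cells Wnt5a siRNA gave a log2 difference of 0.38 ± 0.17, which did not pass (adjusted p = 0.1125) except without the third stretched control library (0.0307) or stretched Wnt5a siRNA 2 (0.0383). The interaction was 0.99 ± 0.24 (adjusted p = 0.0135), with adjusted p from 0.0039 to 0.0380 over the alternatives. The order of the Erbb4 group means was thus the reverse of that of Hbegf and Areg at both ends, highest in unstretched control and lowest in stretched control.

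**Figure D3:**
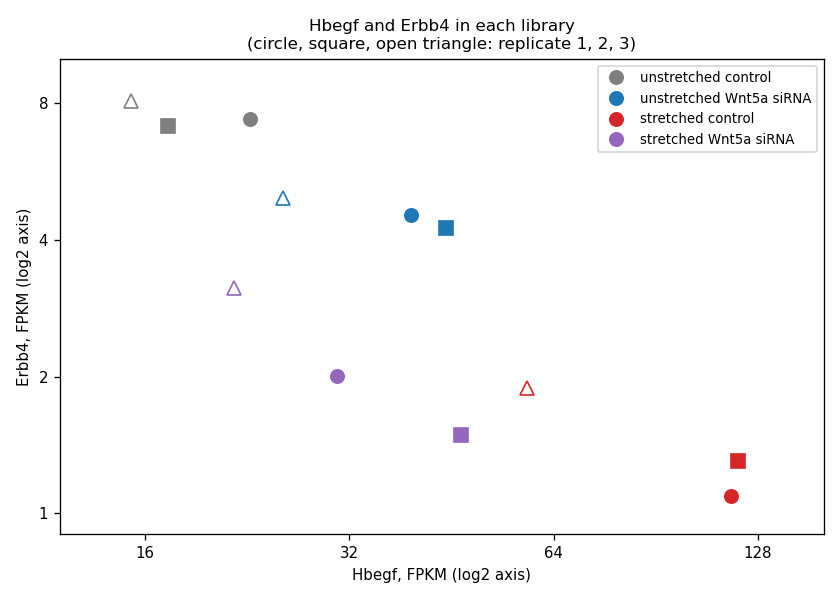
Hbegf FPKM (horizontal, log2 axis) against Erbb4 FPKM (vertical, log2 axis) in the 12 libraries, coloured by group; circle, square and open triangle are replicates 1, 2 and 3. Unstretched control libraries lie at 7.10 to 8.07 FPKM of Erbb4 and stretched control libraries at 1.09 to 1.89, and within each of the 4 groups replicate 3 has the lowest Hbegf and the highest Erbb4.

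Within the groups, the replicate number moved with these genes. Replicate 3 had the lowest Hbegf and the lowest Areg of its group in all 4 groups, as 397 of 10518 genes (3.77%) did. It had the highest Erbb4 in all 4 groups, as 353 genes (3.36%) did. Pearson's r of the deviations from the group means over the 12 libraries was 0.887 between Hbegf and Areg and −0.877 between Hbegf and Erbb4. These are descriptions, since the points share libraries and replicate numbers.

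Egfr, the receptor of Hbegf, Areg, Ereg and Tgfa, stayed in a narrow range. It was at 6.15, 6.31 and 5.86 FPKM in unstretched control, 5.0, 6.1 and 5.17 in unstretched Wnt5a siRNA, 5.32, 5.46 and 6.33 in stretched control and 6.44, 7.32 and 7.26 in stretched Wnt5a siRNA libraries. The stretched Wnt5a siRNA libraries were the highest 3 of the 12, and the share of all genes with such an order is not given here. Egfr rose with stretch under Wnt5a siRNA by a log2 change of 0.32 ± 0.10 (adjusted p = 0.0452), and this call was lost in 11 of 19 alternatives, at up to adjusted p = 0.1651 under the same-sum scaling. Those were also no filter and the fits without unstretched control 1, 2 or 3, unstretched Wnt5a siRNA 1 or 3, stretched control 1, or stretched Wnt5a siRNA 1, 2 or 3. In stretched cells Wnt5a siRNA gave 0.26 ± 0.10 (adjusted p = 0.0707), which passed under the same-sum scaling (0.0294) and without the third stretched control library (0.0206). With stretch under control siRNA the difference was −0.09 (adjusted p = 0.4794), but −0.28 under the same-sum scaling (0.0392). The interaction was 0.41 ± 0.14 (adjusted p = 0.0524), which passed under the same-sum scaling (0.0327) and without the third stretched control library (0.0179) or unstretched Wnt5a siRNA 2 (0.0389).

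Erbb2, the partner receptor with no known ligand, was the most abundant receptor per transcript length in every library. It was at 25.3, 27.2 and 25.7 FPKM in unstretched control, 26.8, 27.6 and 25.5 in unstretched Wnt5a siRNA, 23.0, 24.6 and 21.7 in stretched control and 20.5, 22.2 and 20.8 in stretched Wnt5a siRNA libraries. All 6 stretched libraries were below all 6 unstretched ones. The share of all genes with such a split is not given here. With stretch, 29.0% of all genes lay below without overlap under control siRNA and 20.6% under Wnt5a siRNA. Under Wnt5a siRNA Erbb2 fell with stretch by 0.32 ± 0.07 (adjusted p = 0.0087), to 79.5%. Under control siRNA the difference was −0.17 ± 0.07 and missed the threshold (adjusted p = 0.0516), and it passed in 6 alternatives, among them the same-sum scaling (−0.39, adjusted p = 4.2e-04) and the fit without stretched control 2 (0.0286). Wnt5a siRNA gave 0.03 without stretch (adjusted p = 0.7875) and −0.12 with stretch (adjusted p = 0.2109), and the interaction was −0.15 (adjusted p = 0.2889).

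Erbb3, the other neuregulin receptor, was under 1 FPKM in all 12 libraries. It was at 0.423, 0.50 and 0.288 in unstretched control, 0.486, 0.598 and 0.309 in unstretched Wnt5a siRNA, 0.693, 0.792 and 0.713 in stretched control and 0.647, 0.608 and 0.586 in stretched Wnt5a siRNA libraries. The stretched control libraries were above all unstretched ones, a split whose share over all genes is not given here. In the fit with no filter on low values, Erbb3 rose with stretch under control siRNA by 0.31 ± 0.08 (adjusted p = 0.0091). Its other 4 comparisons did not pass there, with adjusted p from 0.2822 to 0.6533.

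Without stretch, Wnt5a siRNA gave 1 member higher (Hbegf) and 1 lower (Erbb4) of 8, beside 14.6% and 13.9% of all tested genes, or 28.5% in either direction. Both calls were lost without unstretched control 3 or without unstretched Wnt5a siRNA 1 or 2. Of the tested members, Hbegf and Areg lay above the control libraries without overlap (24.7% of all genes did) and Erbb4 below (24.7%). Stretch under Wnt5a siRNA gave 1 higher (Egfr) and 2 lower (Erbb2 and Erbb4), beside 8.44% and 7.59%, or 16.0% in either direction. The same-sum scaling gave 0 higher and 3 lower there, as Nrg1 was then lower and Egfr not called, and it moved the median of all genes to −0.12. Ereg and Egfr lay above without overlap (20.1% of all genes did) and Nrg1, Erbb2 and Erbb4 below (20.6%). The interaction was positive for 1 member (Erbb4) and negative for 3 (Hbegf, Areg and Tgfa), beside 11.7% and 12.1%, or 23.8% in either direction, and the same-sum scaling gave 2 of each. The median log2 change of the 8 members was 0.26 for stretch under control siRNA and −0.23 for stretch under Wnt5a siRNA, against 0.01 and −0.01 over all tested genes. For Wnt5a siRNA it was −0.17 in stretched and 0.01 in unstretched cells, and for the interaction it was −0.34, against 0.00 over all tested genes in these 3. The comparisons share groups, so their values for a gene are not independent of each other.

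The make-up of ligands and receptors was summed per library in FPKM, which is a level per transcript length, and is given as a description with no test. The 5 ligands together came to 22 to 32.6 FPKM in unstretched control, 34.6 to 57.8 in unstretched Wnt5a siRNA, 74.1 to 148.5 in stretched control and 30.5 to 61.4 in stretched Wnt5a siRNA libraries. The stretched control libraries were above all others. Hbegf made up 66.2% to 70.2% of the ligand sum in unstretched control and 78.7% to 82.4% in stretched control libraries. In the Wnt5a siRNA groups it made up 73.9% to 77.3% without stretch and 71.1% to 76.2% with stretch.

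The 4 receptors together came to 39.3 to 41.1 FPKM in unstretched control, 35.9 to 38.6 in unstretched Wnt5a siRNA, 30.1 to 32.1 in stretched control and 29.6 to 31.8 in stretched Wnt5a siRNA libraries. Both stretched groups were below both unstretched groups. Erbb4 made up 17.3% to 20.2% of this sum in unstretched control, 11% to 13.8% in unstretched Wnt5a siRNA, 3.63% to 6.16% in stretched control and 4.70% to 9.86% in stretched Wnt5a siRNA libraries. Erbb2 made up 64.4% to 76.5% over all libraries. Egfr was less abundant than Erbb4 in the unstretched control libraries, at 0.726 to 0.889 FPKM per FPKM of Erbb4, and more abundant in all others, at 3.36 to 4.87 in stretched control libraries.

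**Figure D4:**
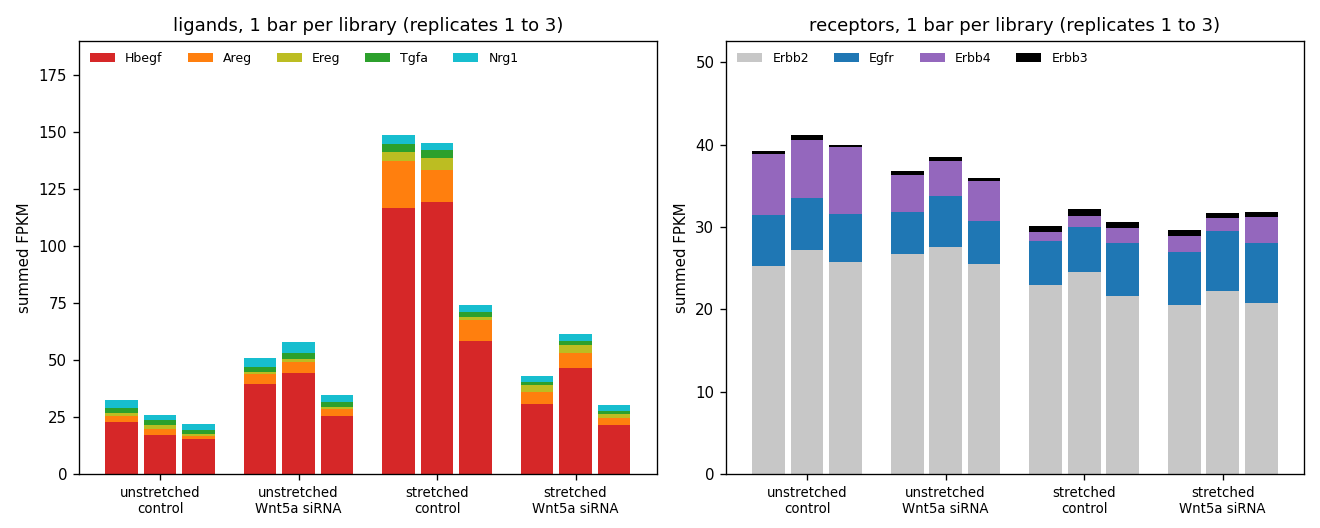
Summed FPKM (vertical axis) of the 5 ligands (left) and the 4 receptors (right), with 1 stacked bar per library in the order of replicates 1 to 3 within each group and 1 colour per gene. The ligand sum reaches 74.1 to 148.5 FPKM in stretched control libraries and stays at 22 to 32.6 in unstretched control libraries, and the Erbb4 part of the receptor bars is largest in unstretched control libraries.

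Other genes of the pathway were read from a list by role, with the 9 members left out. Of 84 genes on the list, 77 were found in the data and 68 were tested. With stretch under control siRNA 30 rose and 13 fell (17 and 23 under the same-sum scaling), beside 27.5% and 26.8% of all genes. With Wnt5a siRNA in stretched cells 4 rose and 26 fell (8 and 15), beside 13.2% and 14.2%. Without stretch Wnt5a siRNA gave 8 higher and 13 lower, beside 14.6% and 13.9%. Stretch under Wnt5a siRNA gave 7 higher and 4 lower (4 and 9), beside 8.44% and 7.59%. The interaction was positive for 4 and negative for 16, beside 11.7% and 12.1%. These shares over all genes are also the background of the counts by role below. Without the third stretched control library the counts, higher and lower, were 7 and 32 for Wnt5a siRNA in stretched cells and 14 and 16 in unstretched cells. They were then 9 and 8 for stretch under Wnt5a siRNA and 5 and 24 for the interaction. Calls over all 10518 genes grew as well without that library. They went from 2875 to 4662 for Wnt5a siRNA in stretched cells and from 3002 to 3935 in unstretched cells. For stretch under Wnt5a siRNA they went from 1686 to 2625, and for the interaction from 2503 to 3634.

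The ERK feedback genes and targets, which are switched on by the ERK cascade, had 21 tested genes. With stretch under control siRNA 12 rose and 3 fell (10 and 3 under the same-sum scaling), led by Ccnd1, a cyclin of the cell cycle (1.87 ± 0.12, adjusted p = 1.1e-06), Dusp6, a phosphatase of ERK (1.54 ± 0.16, adjusted p = 1.1e-05), and Spry2, an inhibitor of receptor signalling (0.95 ± 0.10, adjusted p = 1.5e-05). The 3 that fell were Dusp5 (−0.66), Spry1 (−0.42) and Phlda1 (−0.30). With Wnt5a siRNA in stretched cells 0 rose and 13 fell (0 and 10), led by Dusp6 (−0.99 ± 0.16, adjusted p = 0.0024), the immediate early gene Fos (−0.73 ± 0.12, adjusted p = 0.0027) and Spry2 (−0.59 ± 0.10, adjusted p = 0.0036). Fos was also lower with Wnt5a siRNA without stretch, with means of 12.8 FPKM under control and 8.29 under Wnt5a siRNA. Its interaction of −0.15 was not called. Dusp6 was at 17.5, 17 and 14.1 FPKM in unstretched control, 18.3, 20.8 and 18.6 in unstretched Wnt5a siRNA, 49.1, 56.5 and 41.8 in stretched control and 26.5, 29.3 and 17.9 in stretched Wnt5a siRNA libraries. All 3 stretched control libraries were above every other library in Dusp6, a split whose share over all genes is not given here. The interaction was positive for 0 and negative for 8 of the 21, with Ccnd1 at −0.98 ± 0.17 (adjusted p = 0.0032), the ETS factor gene Etv4 at −1.16 ± 0.21 (adjusted p = 0.0039) and Dusp6 at −1.23 ± 0.23 (adjusted p = 0.0040). Without stretch Wnt5a siRNA gave 4 higher and 3 lower, and stretch under Wnt5a siRNA gave 1 higher (Ccnd1, 0.89 ± 0.12) and 2 lower (Spry4 and Dusp5; 1 and 4 under the same-sum scaling).

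**Figure D5:**
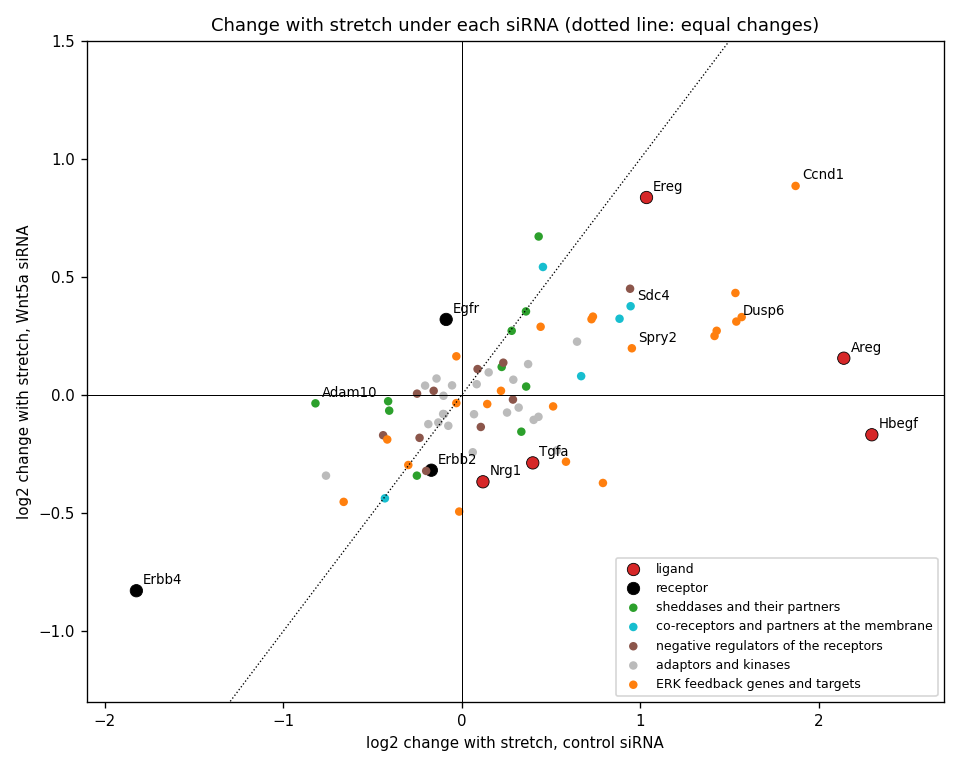
Log2 change with stretch under control siRNA (horizontal axis) against log2 change with stretch under Wnt5a siRNA (vertical axis) for the 8 tested members (large points) and the 68 tested pathway genes (small points), coloured by role; the dotted line marks equal changes. Hbegf lies at 2.30 and −0.17 and Areg at 2.14 and 0.16, close to the horizontal axis, while Ereg, at 1.03 and 0.84, lies near the line and Erbb4 is at −1.82 and −0.83.

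Among 10 tested sheddases and partners, stretch under control siRNA gave 4 higher and 4 lower (0 and 4 under the same-sum scaling). The protease genes Adam10 (−0.82 ± 0.09, adjusted p = 1.3e-05), Adam19 (−0.41 ± 0.06, adjusted p = 1.3e-04) and Bace1 (−0.41 ± 0.07, adjusted p = 3.6e-04) fell. Adam10 also fell with Wnt5a siRNA without stretch (−0.56 ± 0.09, adjusted p = 0.0013), and its interaction was 0.78 ± 0.12 (adjusted p = 0.0022). Adam17, the main sheddase of Hbegf, Areg and Tgfa, was at 20.1, 21.1 and 20.6 FPKM in unstretched control, 21.3, 20.5 and 20.6 in unstretched Wnt5a siRNA, 25.0, 24.6 and 30.8 in stretched control and 26.4, 27.2 and 27.0 in stretched Wnt5a siRNA libraries. All 6 stretched libraries were above the 6 unstretched ones, and Adam17 rose with stretch by 0.36 under control siRNA (adjusted p = 0.0023) and by 0.35 under Wnt5a siRNA (adjusted p = 0.0108), with an interaction of −0.01 (adjusted p = 0.9764). The rise under control siRNA was among the 4 lost under the same-sum scaling. With stretch, 29.0% of all genes lay above without overlap under control siRNA and 20.1% under Wnt5a siRNA, and the share above in both is not given here. In stretched cells with Wnt5a siRNA, Bace1 (0.45 ± 0.07, adjusted p = 0.0020) and Mmp14, a membrane metalloprotease (0.57 ± 0.14, adjusted p = 0.0111), rose, and Rhbdf2, a partner of Adam17 (−0.77 ± 0.19, adjusted p = 0.0117), fell.

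Of 5 tested co-receptors and membrane partners, 4 rose and 1 fell with stretch under control siRNA, with the heparan sulfate carrier Sdc4 at 0.95 ± 0.10 (adjusted p = 9.1e-06), the hyaluronan receptor Cd44 at 0.88 ± 0.09 (adjusted p = 1.4e-05) and Sdc1 at 0.67 ± 0.10 (adjusted p = 1.1e-04). With Wnt5a siRNA in stretched cells 2 fell, Sdc4 (−0.48, adjusted p = 0.0055) and Cd44 (−0.33, adjusted p = 0.0254), and 0 rose. This balance depended on the setting, with 2 higher and 1 lower under the same-sum scaling, 1 of each under quantile normalization, and 2 of each without the third stretched control library. Without stretch, Wnt5a siRNA gave 1 higher and 0 lower, and Sdc1 had means of 11.7 FPKM with control and 21.4 with Wnt5a siRNA. Stretch under Wnt5a siRNA gave 3 higher and 1 lower (1 of each under the same-sum scaling). The interaction was negative for 3 (Sdc4, Cd44 and Sdc1) and positive for 0. Of 10 negative regulators, 1 rose (Socs5, a suppressor of cytokine signalling, 0.94 ± 0.09, adjusted p = 6.0e-06) and 3 fell with stretch under control siRNA (1 and 5 under the same-sum scaling), among them the ubiquitin ligase genes Cblb (−0.44 ± 0.10, adjusted p = 0.0023) and Rnf41 (−0.25 ± 0.08, adjusted p = 0.0189). With Wnt5a siRNA in stretched cells the phosphatase gene Ptpn1 (−0.44 ± 0.10, adjusted p = 0.0098) and the Egfr inhibitor gene Errfi1 (−0.29 ± 0.08, adjusted p = 0.0212) fell. Without stretch, means with control and Wnt5a siRNA were 27.3 and 23.6 FPKM for Ptpn1 and 19.6 and 15.6 for Errfi1. Their interactions of −0.24 and 0.02 were not called. Of 22 adaptors and kinases, 9 rose and 2 fell with stretch under control siRNA, but 2 rose and 10 fell under the same-sum scaling, so that the direction of this group depends on the scaling. With Wnt5a siRNA in stretched cells 2 rose and 8 fell (3 and 2 under the same-sum scaling), with the lipid kinase gene Pik3cb at −0.70 ± 0.13 (adjusted p = 0.0037).

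For each of the 8 tested members, the 3 tested genes whose log2 values followed it most closely over the 12 libraries are given with Pearson's r, as a description of libraries that fall into 4 groups. Provisional symbols that begin with LOC or RGD were passed over. For Hbegf these were Actr3 (0.986), Rnd1 (0.986) and Pprc1 (0.985), and for Areg Efhd2 (0.982), Rrp15 (0.980) and Slc27a4 (0.978). Ereg was followed by Dusp2 (0.946), Fscn1 (0.919) and Aamp (0.914), and Tgfa by Flnc (0.964), Larp1b (0.962) and Lrrfip1 (0.962). For Erbb4 they were Lrrc7 (0.982), Osbpl6 (0.982) and Wnk2 (0.981). Erbb2 was followed by Plekhg2 (0.944), Eef1a2 (0.932) and Mst1r (0.928), and Nrg1 by Per2 (0.905), Cdc7 (0.899) and Slc16a3 (0.869). The values were lowest for Egfr, with Slc29a3 (0.879), Snx8 (0.858) and Pex2 (0.858). Rnd1 had group means of 22.4, 42.5, 108 and 46.0 FPKM in unstretched control, unstretched Wnt5a siRNA, stretched control and stretched Wnt5a siRNA libraries, beside 18.5, 36.5, 98.3 and 33.1 for Hbegf.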

How the data were processed

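Polyadenylated RNA was sequenced from 12 libraries, per the labels' protocols with a TruSeq stranded mRNA kit. The authors deposited FPKM per gene symbol. The submitters' processing notes name the genome build rn6, Cuffdiff 2.2.1, Bowtie2 and TopHat2 2.1.1; no annotation, strand setting or scaling between libraries is given in the sources used here. Without counts the depth is unknown. Of 1523 genes under 0.5 FPKM throughout and above 0 in at least 3 libraries, 1462 were at whole multiples of a common step. Libraries were first scaled to each other by fitted factors. The step was the smallest value of the gene or a simple fraction of it, with a tolerance of 0.03 relative to the multiple. Fragments were not reconstructed, and a count model was not used. Precision rests on the spread between libraries. Overlapping genes and near-identical copies are uncertain, and a listed 0 may be a failed estimate.

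Values were transformed to log2(FPKM + 1), a scale that understates the change of low genes. The 10518 genes with at least 1 FPKM in at least 3 libraries entered a model of the 4 group means in R 4.3.3 (limma 3.58.1; eBayes with trend after lmFit and contrasts.fit; 8 residual degrees of freedom), tested on simulated data first. Tests were 2-sided, adjusted by Benjamini-Hochberg over all genes of a comparison, with 0.05 as the threshold. The members and the pathway and marker lists were chosen with earlier results of these data known. All members are named, with Wnt5a, and per role and comparison up to 3 called pathway genes with the smallest adjusted p. Adam17 is given with all its comparisons. Further pathway genes and values are named where they limit the reading of a count. The name Nrdc on the list was matched as Nrd1, and 7 listed names were not analysed here. Alternatives were a pseudocount of 0.1, no filter, a filter at FPKM 5, median ratio, quantile and same-sum (TPM) scaling, a replicate block and leaving out each library. The labels do not say that replicate numbers pair samples. The correlations of same-numbered deviations were 0.184, 0.242 and 0.143 between both Wnt5a siRNA groups. Between the siRNAs they were 0.219, 0.095 and 0.231 with stretch and 0.16, 0.058 and 0.186 without. In these comparisons each replicate matched its own number best, and the blocked value is given beside them where a call changes. For stretch under control siRNA only replicate 1 did so. Protein sequences were not used here. Promoter windows came from RefSeq (GRCr8), a build other than rn6, and were used for sequence only.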

Additional observations from a re-analysis of the deposited data

Results flagged for a closer look

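For 4 members the change with stretch differed between control and Wnt5a siRNA by the test of the difference itself (limma interaction, adjusted over all genes). The log2 change of Hbegf with stretch was 2.30 with control siRNA and −0.17 with Wnt5a siRNA, a difference of −2.46. For Areg the changes were 2.14 and 0.16, a difference of −1.98. The changes of Tgfa were 0.40 and −0.29, a difference of −0.68 that lay at the threshold and was lost in 12 of 18 alternatives. Erbb4 had changes of −1.82 and −0.83, a difference of 0.99. Groups of 3 libraries are too small for the check on single outlying samples.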

How the results depend on the processing

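The calls of Hbegf and Areg with stretch under control siRNA, with Wnt5a siRNA in stretched cells and in the interaction, and of Erbb4 with both stretch comparisons and the interaction, passed under every alternative run. For Wnt5a siRNA without stretch, the count of members called was 1 with no filter and 4 with the replicate block, against 2. Leaving out 1 library at a time moved the members called from 2 to 5 for Wnt5a siRNA with stretch and from 0 to 3 without stretch. The pathway genes called moved from 14 to 39 for Wnt5a siRNA with stretch, from 12 to 30 without stretch and from 6 to 17 for stretch with Wnt5a siRNA. All genes called moved from 1092 to 4662, from 1758 to 3935 and from 848 to 2625 in these comparisons, and from 1572 to 3634 for the interaction, with the highest counts without the third stretched control library. Sign changes occurred only in differences that were not called. These were Tgfa with Wnt5a siRNA without stretch (0.00 under the same-sum scaling, −0.09 to 0.07 over the left-out libraries), Nrg1 with stretch under control siRNA (−0.05 under the same-sum scaling) and Egfr with stretch under control siRNA (0.04 under quantile normalization). Over the left-out libraries Hbegf ranged from −0.45 to 0.09 and Areg from −0.04 to 0.45 with stretch under Wnt5a siRNA, and Ereg from −0.58 to 0.03 with Wnt5a siRNA in stretched cells, from −0.21 to 0.16 without stretch and from −0.56 to 0.06 in the interaction. The causes were not tested. The filter at FPKM 5 gave no value for Ereg, Tgfa, Nrg1 and Erbb3. With the replicate block, differences passed that otherwise did not for Areg (adjusted p = 0.0130) and Nrg1 (0.0495) with Wnt5a siRNA without stretch and for Tgfa (0.0398) and Erbb2 (0.0366) with stretch under control siRNA. Same-numbered libraries had a correlation under 0.1 for at least 1 pair in every comparison of groups except stretch under Wnt5a siRNA. Low members such as Ereg and Erbb3 are the least certain.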
